A study of Mus musculus with 10 samples.

Results

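XBP-1 sites that recurred across 2 batches of mouse liver with intact Ern1 were described from the 4 chromatin immunoprecipitation libraries labelled Fed replicates 1 and 2 and WT replicates 1 and 2 (Fed 1, Fed 2, WT 1 and WT 2), out of 10 samples in the series. The libraries were chosen by these labels. All 4 were liver of C57BL/6J mice with a wild-type genotype, precipitated with an antibody labelled for Xbp-1s, the spliced form of the factor. The Fed mice carried the treatment label fed. The WT mice were controls of mice with a liver-specific knockout of Ern1 and carried no feeding label. The labels give no age, and do not say whether the 2 libraries of a group came from separate animals. Fed lists were called against 1 input library with 51-bp tags and WT lists against the other with 50-bp tags, so feeding label, mice, input and run cannot be told apart between Fed and WT. The account below is therefore of agreement, with no test of difference.

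XBP-1 is a basic leucine zipper transcription factor of the unfolded protein response, the programme that adjusts the capacity of the endoplasmic reticulum (ER) to its load of secretory protein. IRE1, the ER kinase and nuclease encoded by Ern1, splices Xbp1 mRNA into the form that is translated to the active factor. XBP-1 and the related factor ATF6 are known to act through the ER stress response element (ERSE), which pairs a CCAAT box for NF-Y with a CCACG box, and through the unfolded protein response element (UPRE), with the core TGACGTGG. In liver, a tissue that secretes most plasma proteins, XBP-1 is known for its role in ER homeostasis and in lipid synthesis.

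Some of the best placed genes hold these elements near the peak summits. Of the 58 promoters of genes whose rank was 100 or better in every library, 7 held an ERSE, 8 a UPRE core and 22 the hexamer CACGTC, so most held neither full element. The 8 stretches of 71 bases below were picked because they hold an element, lie upstream of every start that the RefSeq table gives for the gene, and belong to genes with a peak among the top 1000 of every library. Sequences are from RefSeq on GRCm38.p6, the assembly of mm10, written 5′ to 3′ along the strand of the gene. The capitals mark the CCAAT and CCACG boxes of an ERSE, that is CCAAT and CCACG separated by 9 bases, on either strand.
Hsp90b1: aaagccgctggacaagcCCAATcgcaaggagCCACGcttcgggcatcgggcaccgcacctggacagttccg
Dnajc3: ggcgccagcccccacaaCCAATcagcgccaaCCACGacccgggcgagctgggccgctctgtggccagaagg
Pdia6: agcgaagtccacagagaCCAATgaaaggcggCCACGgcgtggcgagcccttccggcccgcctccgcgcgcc
Hspa5: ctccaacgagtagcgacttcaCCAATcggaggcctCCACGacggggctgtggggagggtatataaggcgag
Calr: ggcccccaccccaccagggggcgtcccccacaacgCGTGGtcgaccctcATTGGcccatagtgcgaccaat
Creld2: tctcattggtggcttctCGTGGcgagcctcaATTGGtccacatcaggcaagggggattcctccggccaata
These stretches lie at chr10:86705603-86705673, minus strand (Hsp90b1), chr14:118937810-118937880, plus strand (Dnajc3), chr12:17266474-17266544, plus strand (Pdia6), chr2:34772004-34772074, plus strand (Hspa5), chr8:84847058-84847128, minus strand (Calr) and chr15:88819503-88819573, plus strand (Creld2). In Calr and Creld2 the element runs on the other strand and reads CGTGG before ATTGG. The distance from the median of the 4 summits to the nearest capital base was 1 bp in Dnajc3, Hspa5 and Calr, 6 bp in Creld2, 19 bp in Pdia6 and 32 bp in Hsp90b1.

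A UPRE core, or the shorter hexamer CACGTC that it contains on its other strand, lay near the summits of other genes. The capitals below mark these letters.
Txndc11: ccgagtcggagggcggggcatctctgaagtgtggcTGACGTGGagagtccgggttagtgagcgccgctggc
Mia3: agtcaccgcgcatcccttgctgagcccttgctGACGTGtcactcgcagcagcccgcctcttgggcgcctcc
They lie at chr16:11134599-11134669, minus strand (Txndc11) and chr1:183369612-183369682, minus strand (Mia3). The median summit fell on the hexamer in Mia3 (0 bp) and 8 bp from the UPRE core in Txndc11. A match is a description of the letters and not evidence of a site.

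The 4 lists differed in length far more than in depth. Fed 1 held 82975 peaks from 17.4 M kept tags (M, mega), Fed 2 held 47357 from 7.77 M, WT 1 held 6258 from 14.07 M and WT 2 held 30327 from 9.18 M. WT 1 had the shortest list although only Fed 1 had more tags, so every count over all 4 libraries was bounded by WT 1. Peaks were therefore ranked by pileup (the number of overlapping extended tags at the summit) within each list, with rank 1 the highest. Only 1 tag was kept per position and strand, which limits a pileup to 408 in Fed 1, 430 in Fed 2, 348 in WT 1 and 364 in WT 2. The highest pileups were 404, 416, 289 and 354. Peaks above 80% of the limit numbered 31 in Fed 1, 5 in Fed 2, 1 in WT 1 and 25 in WT 2, so the order at the very top is compressed mainly in Fed 1 and WT 2.

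Peaks that overlapped by 1 bp or more formed 106777 regions, of which 73088 were in 1 library, 14918 in 2, 16434 in 3 and 2337 in all 4 (2.19%). Recurrence went with position at gene starts. The summit was within 1 kb of a start (or, where the table of starts lacks the gene, of a gene end) in 7.40% of regions of 1 library, 14.6% of those of 2, 53.5% of those of 3 and 86.4% of those of all 4. Of the 16434 regions in 3 libraries, 16313 were those of Fed 1, Fed 2 and WT 2. Without WT 1, 18650 regions recurred in the remaining 3 libraries, and leaving out any other library gave 2345 to 2422.

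**Figure D1:**
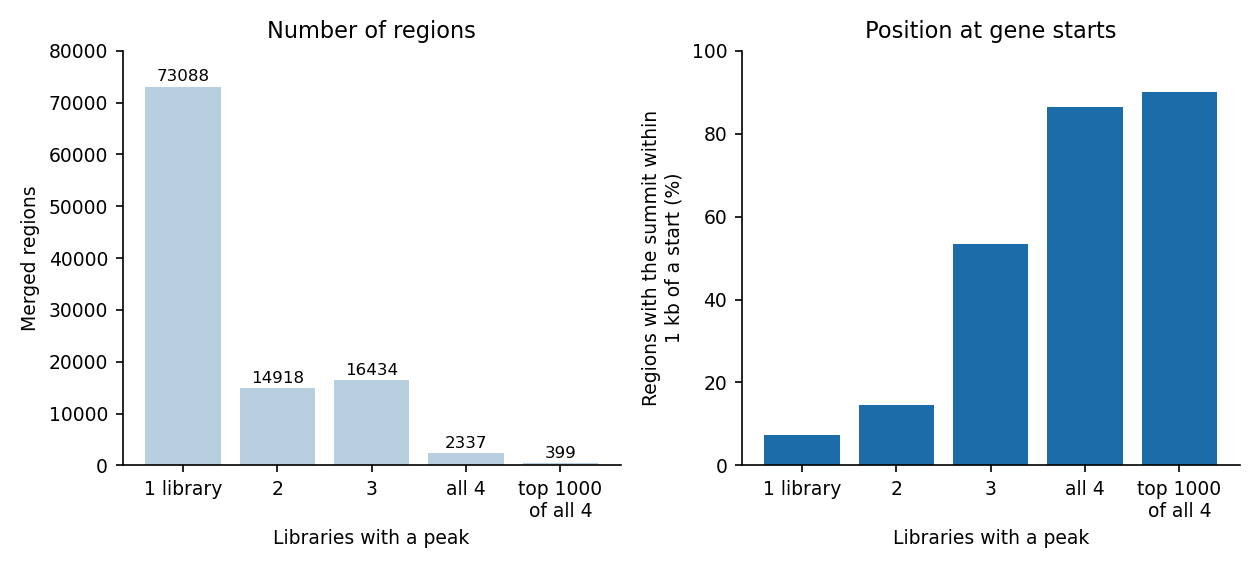
Merged regions by the number of libraries with a peak (left, count of regions) and the share whose summit lay within 1 kb of a start (right, percent), for the 4 libraries Fed 1, Fed 2, WT 1 and WT 2. Regions fell from 73088 in 1 library to 2337 in all 4, while the share at starts went from 7.40% to 86.4% and was 90.0% for the 399 regions among the top 1000 of all 4.

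When equal numbers of peaks were taken from each list, 399 regions were among the top 1000 of all 4 libraries. At smaller depths the share was higher, with 58 regions of the top 100 and 141 of the top 250. At larger depths 629 regions of the top 2000 and 1504 of the top 5000 recurred. Agreement across the batches was close to that within a group. The number of top 1000 regions shared was 595 for Fed 1 with Fed 2 and 553 for WT 1 with WT 2. Across batches it was 575 for Fed 1 with WT 1, 591 for Fed 1 with WT 2, 473 for Fed 2 with WT 1 and 584 for Fed 2 with WT 2. Only the pair of Fed 2 and WT 1 stood below both pairs within a group. Over the 2337 recurring regions the Spearman correlation of ranks, a description across regions and not across samples, was lowest in that same pair at 0.54 and highest between Fed 2 and WT 2 at 0.71. Libraries of 1 group share an input, and all share the genome's mappable sequence.

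**Figure D2:**
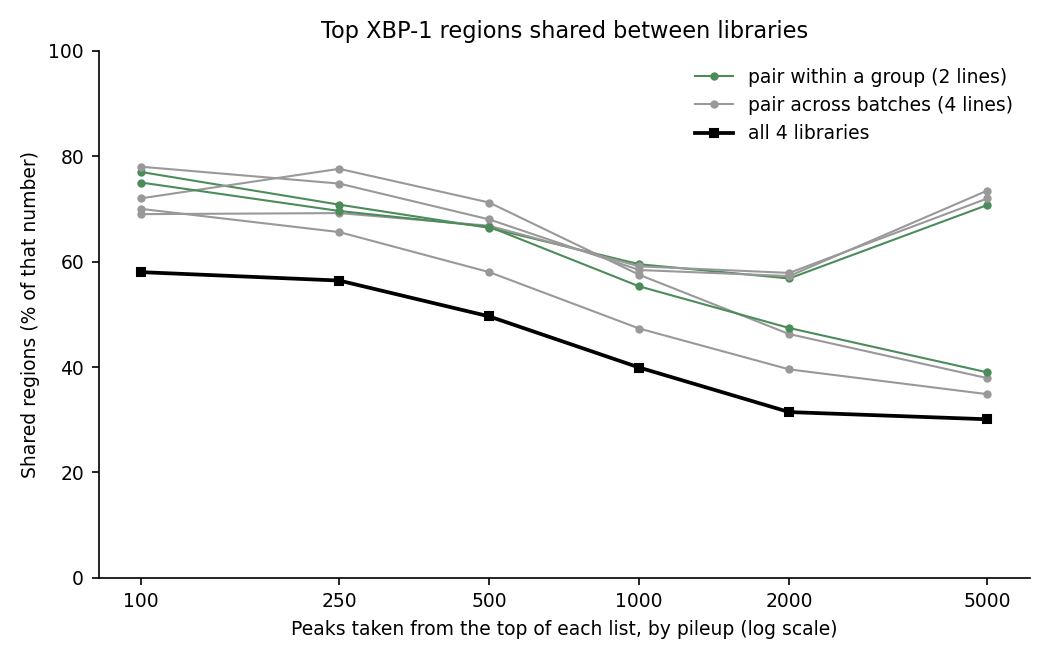
Share of regions in common (percent of the number of peaks taken) against the number of peaks taken from the top of each list by pileup (log scale), for pairs within a group (green), pairs across batches (grey) and all 4 libraries (black). The black line falls from 58.0% at 100 peaks to 39.9% at 1000, and the grey and green lines overlap.

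The summits of the top regions fell at nearly the same base in every library. The range of the 4 summits had a median of 48 bp in the 399 top regions, and it was at most 100 bp in 328 of them (82.2%). In the other 1938 recurring regions the median range was 177 bp, and 603 (31.1%) were within 100 bp. Relative to the annotated start, the median summit of the top genes lay at -2.5 bp in Fed 1, 1.5 bp in Fed 2, -9.5 bp in WT 1 and 16.5 bp in WT 2, with negative values upstream. For the other genes with a peak in all 4 libraries it lay 46 to 124 bp downstream.

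Of 21883 protein-coding genes, 2332 had a peak in all 4 libraries (10.7%) and 408 had a top 1000 peak in all 4 (1.86%). Single libraries marked 63.9% of genes in Fed 1, 56.8% in Fed 2, 11.6% in WT 1 and 53.2% in WT 2. Without WT 1, 10954 genes had a peak in the remaining 3. Genes that share a start region share a peak, so the 2332 genes stood on 2099 regions and the 408 on 358.

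The gene with the best placing by pileup was Brd2, a bromodomain protein that reads acetylated histones (chr17:34112019-34122814, minus strand). Its start region ranked 6 in Fed 1, 3 in Fed 2, 1 in WT 1 and 4 in WT 2, with pileups of 383, 369, 289 and 339 and folds over local background of 52.2, 92.8, 37.1 and 78.4. H2-DMa, which encodes a chain of a class II peptide-loading molecule, shares that peak. The 4 summits spanned 35 bp and lay 248 to 283 bp downstream of the listed Brd2 start nearest to them, at 34122607. The gene span given above begins further upstream, at 34122814. Among the 16 genes of the list of BET and chromatin factors it was the only 1 with a top 1000 peak in all 4. Its paralog Brd3 ranked far lower, at 1970 in Fed 1, 3089 in Fed 2 and 5435 in WT 2, and had no peak in WT 1.

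The next places included genes of protein folding and translocation. Hsp90b1, the ER paralog of HSP90 (chr10:86690841-86705444, minus strand), ranked 2 in both Fed libraries and 9 in both WT libraries. Its pileups were 403, 379, 239 and 326 in Fed 1, Fed 2, WT 1 and WT 2, and the 4 summits spanned 16 bp, upstream of the start. Pdia3, a protein disulfide isomerase that works with the lectin chaperones, shares a start region with Catsper2, a sperm calcium channel subunit. That region ranked 10, 5, 3 and 8. Snd1, an RNA-binding protein, ranked 5, 10, 10 and 6. Tram1, a membrane protein at the translocon, ranked 12, 7, 2 and 3, and its fold was 70.5, 115, 44.3 and 80.8, the highest in Fed 1 and Fed 2 of the 25 best placed genes. Fed and WT ranks overlapped in Brd2, Pdia3 and Snd1, Hsp90b1 was better placed in both Fed lists and Tram1 in both WT lists.

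The remaining genes among the best placed 25 had worst ranks of 21 to 51. They were Dnajc3 (an ER co-chaperone), Mia3 (export of large cargo at ER exit sites), Ube2g2 (a ubiquitin-conjugating enzyme of ER-associated degradation), Hdlbp (an RNA-binding protein), Hyou1 (an ER chaperone), Pdia6 and Txndc5 (disulfide isomerases), Rpn2 (a subunit of the oligosaccharyltransferase) with Mroh8 at the same peak, Ufl1 (the ligase of the modifier UFM1), Tmem39a (an ER membrane protein), Manf (an ER-resident secreted factor), Surf4 (a cargo receptor) with Stkld1 at the same peak, Txndc11, Arf1 (the GTPase that recruits COPI coats), Fkbp2 (an ER prolyl isomerase) and Lrrc59 (an ER membrane protein). The ranks of Dnajc3 were 21, 12, 16 and 17, those of Ufl1 were 14, 17, 38 and 16, and those of Lrrc59 were 51, 48, 43 and 46. Of the first 25 genes 15 belonged to the 7 lists of secretory pathway genes described below, as did 27 of the first 50 and 48 of the first 100. The 7 lists hold 180 of all 21883 genes, and 137 of the 2332 with a peak in all 4. They were drawn up with earlier results of these data known, so these counts are a description only. The ranking measure matters for the single places. By fold in place of pileup, 18 of the 25 remained, and Tram1, Hdlbp and Pdia6 were placed ahead of Brd2.

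**Figure D3:**
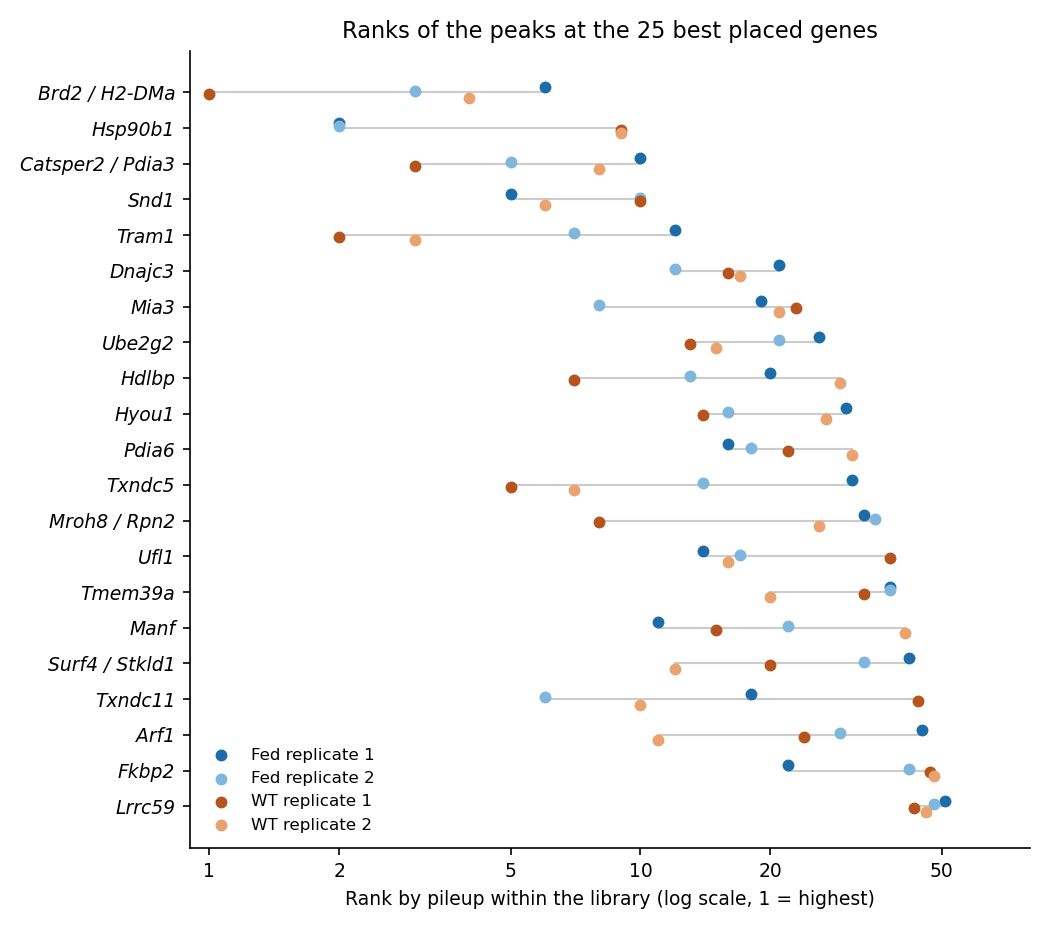
Rank by pileup within each library (log scale, 1 is the highest) of the start peaks of the 25 best placed genes. Each point is 1 library and the grey line spans the 4 ranks, and genes that share a peak have 1 row. All points lie at rank 51 or better, and no group is on 1 side throughout.

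Elements of the known response were more frequent in the promoters of the top genes than in the other sets below. The full UPRE core and ERSE were still each in a small minority of the top promoters. Promoters were searched on both strands over 300 bases, from 250 before to 50 after the first start in the table. The hexamer CACGTC was in 112 of 338 promoters of genes with a top 1000 peak in all 4 libraries (33.1%), in 224 of 1585 of the other genes with a peak in all 4 (14.1%), in 558 of 6916 of genes with a peak in the 3 longer lists only (8.07%) and in 174 of 5830 of genes with no peak (2.98%). Over all 17491 promoters it was in 7.10%. With every start of a gene searched, an alternative chosen after seeing the data, it was in 36.1%, 16.7%, 9.31% and 3.17% of the 4 sets. The UPRE core was in 7.10%, 1.70%, 0.492% and 0.274% of the same 4 sets and in 0.680% of all promoters. Every UPRE core also holds the hexamer, CCACG and the palindrome ACGT. The E-box CACGTG, which also holds ACGT, was in 18.05%, 13.7%, 9.99% and 3.38%, so it too was more frequent in the better placed sets. The GC box and CG dinucleotides differed less between the sets that had peaks. GGGCGG, the GC box, was in 71.9%, 76.7% and 70.5% of the first 3 sets against 9.79% of promoters with no peak. The median number of CG dinucleotides was 26, 26 and 23 in those sets and 2 in promoters with no peak. The ETS core CCGGAAG was in 24.3%, 20.8% and 16.9% with 2.81% in promoters with no peak, so it too was more frequent in the better placed sets. CCACG alone was in 69.2%, 58.4% and 49.9% with 15.4% in promoters with no peak. CCAAT alone was in 44.1%, 34.2% and 36.5% with 42.1% in promoters with no peak. The CRE TGACGTCA, which also holds ACGT, was not most frequent in the top set, at 3.55%, 4.98%, 3.08% and 0.635%.

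Only 28 of the 17491 promoters held an ERSE with these exact letters. Of these, 12 belonged to genes with a top 1000 peak in all 4 libraries, 1 to another gene with a peak in all 4 and 9 to genes with no peak in any. A further 1, 2 and 3 belonged to genes with a peak in 3, 2 and 1 libraries. An ERSE was thus in 3.55% of the 338 top promoters, beside 0.160% of all promoters. In the 5830 promoters with no peak it was in 0.154%, near the share of all promoters. The 12 genes, read out after their values were seen, were Hsp90b1, Dnajc3, Pdia6, Hspa5, Alg12 and Creld2 (at 1 shared peak), Hnrnpa3, Calr, Ero1b, Canx, Pan2 and Syvn1. Derl3, a factor of ER-associated degradation, was the other gene with a peak in all 4, at ranks 316, 1601, 287 and 6666. Hnrnpa3, an RNA-binding protein, ranked 13, 9, 96 and 18. Pan2, a subunit of an mRNA deadenylase, ranked 8, 548, 18 and 281. Neither of these encodes an ER chaperone. Acacb, an acetyl-CoA carboxylase of fatty acid metabolism, also holds an ERSE, and it had a peak in Fed 1 only, at rank 67286.

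The hexamer also lay nearer to the summits than to other positions of the same promoters. Among top genes whose summit fell at least 50 bases inside the 300-base window (114 to 132 genes per library), its centre was within 25 bases of the summit in 29 of 129 in Fed 1 (22.5%), 34 of 125 in Fed 2 (27.2%), 35 of 132 in WT 1 (26.5%) and 25 of 114 in WT 2 (21.9%). Of all inner positions in those promoters 10.3%, 10.3%, 10.04% and 10.8% were that near. The UPRE core was near 7.75%, 11.2%, 9.85% and 7.89% of the summits and 2.64% to 2.91% of positions. The GC box was as near to the summits (31.0%, 28.8%, 25.8% and 32.5%) as to all positions (29.8%, 31.6%, 28.9% and 32.5%). The CRE was near only 4, 3, 4 and 1 of the summits (3.10%, 2.40%, 3.03% and 0.877%). Of all positions 0.667%, 0.588%, 0.723% and 0.439% were that near. Nearness to the summits was thus not particular to the hexamer and the UPRE core. In the other genes with a peak in all 4, the hexamer was near 10.6% of summits in Fed 1, 4.86% in Fed 2, 9.34% in WT 1 and 4.81% in WT 2, where 4.26% to 5.09% of positions were. The excess in these lower ranked genes was therefore larger in the libraries with more kept tags, Fed 1 and WT 1. The part of depth in it was not tested. The GC box in these lower ranked genes was near 26.9% of summits in Fed 1, 38.9% in Fed 2, 32.1% in WT 1 and 41.2% in WT 2. Of all positions 26.6%, 31.3%, 29.8% and 34.5% were that near, so it was nearer to the summits in Fed 2 and WT 2. The CRE in these genes was near 6.12%, 2.78%, 3.03% and 3.44% of summits, against 2.72%, 1.88%, 1.64% and 1.79% of positions.

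**Figure D4:**
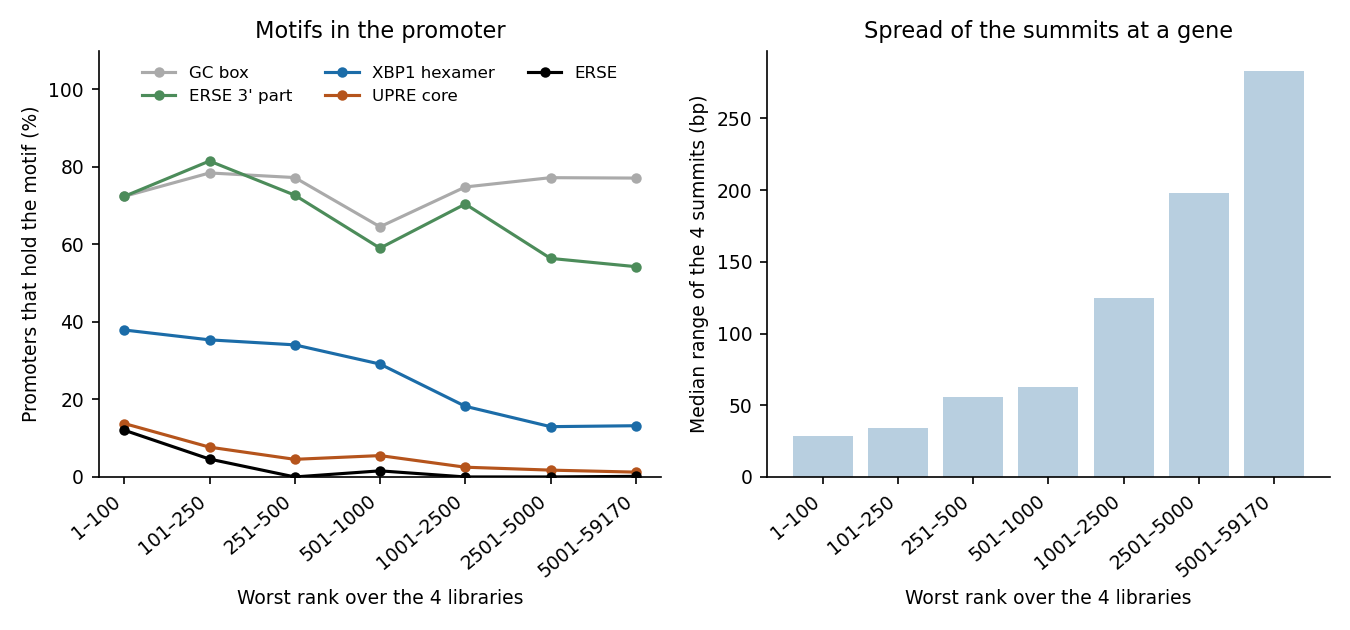
Genes with a peak in all 4 libraries, grouped by their worst rank, with the percent of promoters that hold each motif (left; ERSE 3' part is CCACG) and the median range of the 4 summits in bp (right). From worst ranks of 1 to 100 to those above 5000, the hexamer falls from 37.9% to 13.2% of promoters, the UPRE core from 13.8% to 1.24% and the ERSE from 12.1% to 0.156%, the GC box stays between 64.6% and 78.5%, and the summit range widens from 28.5 to 283 bp.

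The 7 lists of the secretory pathway held 180 matched genes, of which 137 had a peak in all 4 libraries (76.1%) and 100 had a top 1000 peak in all 4 (55.6%), beside 10.7% and 1.86% of all genes. Their median worst rank was 241 among the 137, against 3736 among all 2332. Without WT 1 the count was 164 of 180 (91.1%), beside 50.1% of all genes. Only Alg3, Alg14 and Gpx8 had no peak in any library. The lists were drawn up with earlier results of these data known, so the counts describe them and support no claim about them.

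Among 24 ER folding genes 18 had a peak in all 4 libraries and 17 a top 1000 peak. Hspa5 (BiP, the main ER HSP70, chr2:34772090-34776529, plus strand) ranked 1, 15, 6 and 52, with pileups of 404, 321, 246 and 254, so it led Fed 1 and was lowest in WT 2. Hyou1 ranked 30, 16, 14 and 27, and Manf 11, 22, 15 and 41. Calr, a lectin chaperone of the ER, ranked 53, 132, 79 and 110. The BiP cofactors Dnajb9 (35, 86, 69 and 88), Dnajb11 (88, 75, 143 and 127) and Sdf2l1 (113, 59, 180 and 182) were in the top 200 of every library. Creld2 shared its peak with Alg12 at ranks 28, 24, 17 and 56. The folding genes without a peak in all 4 included Sdf2, the close relative of Sdf2l1, at ranks 5417, 11028 and 6977 with no peak in WT 1. Another was Fkbp14, with a peak in WT 1 only. These and other members outside the 4 best of a list were picked after their values were seen.

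For disulfide formation 11 of 21 genes had a peak in all 4 and 9 a top 1000 peak. Txndc5 ranked 31, 14, 5 and 7, Pdia6 16, 18, 22 and 31, Txndc11 18, 6, 44 and 10, and Pdia4 61, 36, 87 and 75. Of the oxidoreductases of the ER membrane, Tmx2, Tmx3 and Tmx4 had no peak in WT 1 only, and Tmx1 had peaks in Fed 1 and Fed 2 (4461 and 10205) and none in either WT library. Their best rank in any library was 3007.

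Translocation and targeting to the ER had the highest share of any list. Of 24 genes 23 had a peak in all 4 and 17 a top 1000 peak. Besides Tram1, the translocon subunit Sec61a1 ranked 50, 52, 50 and 19, the translocon-associated Ssr1 29, 53, 49 and 32, and Srp72, of the signal recognition particle, 32, 63, 26 and 36. Srp19, also of that particle, ranked 144, 241, 169 and 132. Sec61b, which shares its peak with the glycosyltransferase Alg2, was uneven at 135, 794, 97 and 2344. Tram2 was the 1 member without a peak in WT 1.

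N-glycosylation had 17 of 31 genes with a peak in all 4 and 10 with a top 1000 peak. The subunits of the oligosaccharyltransferase varied. Rpn2 ranked 33, 35, 8 and 26, Krtcap2 41, 99, 48 and 76, Stt3b 154, 85, 98 and 129, Rpn1 129, 133, 85 and 114 and Ddost 111, 201, 88 and 102. Others of the complex were uneven or absent. Stt3a ranked 241, 1980, 368 and 401, Magt1 576, 399, 682 and 2668, and Ostc 191, 2211, 31 and 1738. Dad1 had peaks in Fed 1 (784) and WT 1 (315) only, and Tusc3 ranked 8400, 3683 and 7109 with none in WT 1. Alg6 and Alg12, of the enzymes that build the lipid-linked sugar, were also in the top 1000 of all 4. In the same pathway Alg1, Alg5, Alg9, Alg10b, Alg11 and Alg13 lacked a peak only in WT 1. Alg8 had a peak in Fed 1 only, at rank 4257. Dpagt1 ranked 236 in Fed 1, 141 in WT 1 and 8576 in WT 2, with no peak in Fed 2. Alg3 and Alg14 had no peak at all.

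For ER-associated degradation 19 of 23 genes had a peak in all 4, and 8 had a top 1000 peak. Ube2g2 ranked 26, 21, 13 and 15. Derl1, a channel component of retrotranslocation, ranked 80, 71, 105 and 62, Herpud1, a scaffold of the ligase complex, 44, 50, 70 and 109, and Edem1, a mannosidase-like lectin, 125, 112, 64 and 73. Other members were lower and less even. Sel1l, the adaptor of the ligase, ranked 249, 960, 216 and 1201, the ligase Syvn1 186, 983, 235 and 483, and Derl2, a relative of Derl1, 231, 487, 994 and 3286.

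ER exit and Golgi traffic were as regular as folding. Of 25 genes of COPII and ER exit 21 had a peak in all 4 and 17 a top 1000 peak. Mia3 ranked 19, 8, 23 and 21, Surf4 42, 33, 20 and 12, and the COPII coat genes Sec24d 56, 28, 25 and 14, Sec24c 39, 39, 36 and 70, Sec31a 79, 208, 107 and 199 and Sec23b 133, 155, 310 and 206. Of 32 genes of COPI and the Golgi 28 had a peak in all 4 and 22 a top 1000 peak. Arf1 ranked 45, 29, 24 and 11. The cargo receptors Tmed7 (64, 56, 51 and 22), Tmed9 (54, 89, 39 and 92) and Tmed3 (98, 51, 68 and 28) were within the top 100 of each library. The KDEL receptor Kdelr1 ranked 250, 485, 486 and 601 and the Golgi tether Golgb1 261, 360, 203 and 152.

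**Figure D5:**
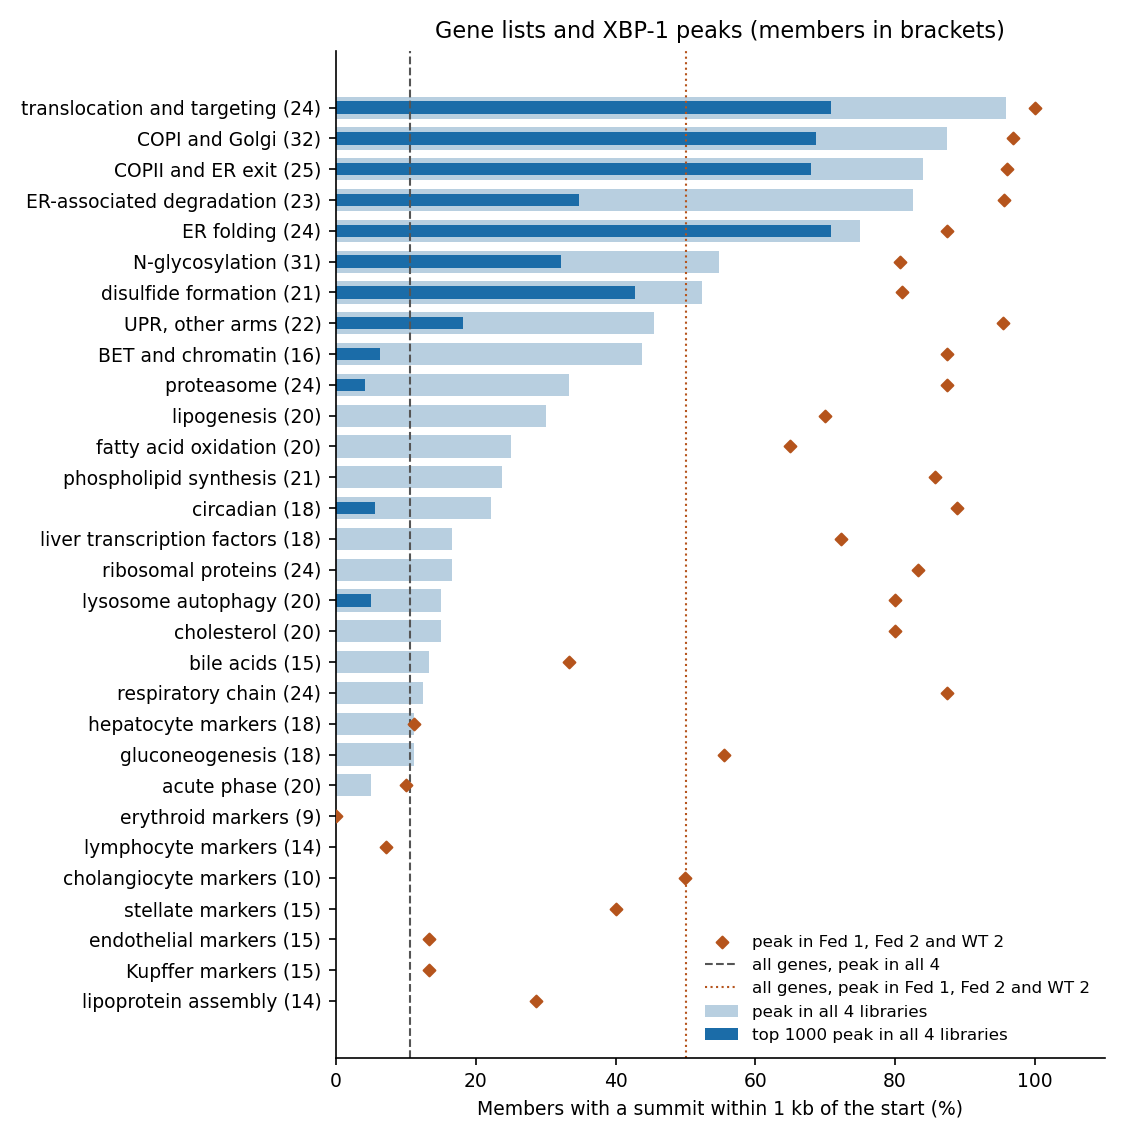
Percent of the matched members of each of 30 gene lists with a peak in all 4 libraries (light bars), with a top 1000 peak in all 4 (dark bars) and with a peak in Fed 1, Fed 2 and WT 2 (diamonds). The dashed and dotted lines give all genes, 10.7% with a peak in all 4 and 50.1% with a peak in those 3. In peaks of all 4 libraries the 7 secretory lists lie at 52.4% to 95.8%, above the other 23 lists.

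The regulators of the response were a mixed group. Of 22 genes of its other arms and regulators 10 had a peak in all 4 and 4 a top 1000 peak. Without WT 1 the count was 21 (95.5%), beside 50.1% of all genes. Xbp1 itself (chr11:5520641-5525993, plus strand) ranked 7, 11, 71 and 43, with pileups of 383, 327, 162 and 270 and summits 281 to 297 bp downstream of the start. It was higher in both Fed lists than in either WT list, a difference that cannot be told apart from batch. Ddit3, which encodes CHOP, ranked 194, 151, 256 and 224, Atf4 314, 526, 665 and 745, and Eif2ak3, which encodes the sensor kinase PERK, 193, 795, 295 and 301. Ern1 ranked 1716 in Fed 1, 3859 in Fed 2 and 830 in WT 2 and had no peak in WT 1. Atf6 ranked 303 in Fed 1 and 191 in WT 1 but 20287 in Fed 2 and 8730 in WT 2, so the replicates labelled 1 were high in both batches and the replicates labelled 2 low.

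Atf6 was not the only gene with that last pattern. Os9, a lectin of ER-associated degradation picked after its values were seen, likewise ranked 255, 11693, 328 and 6668. Of the regions in the top 1000 of exactly 2 libraries, 104 were those of Fed 1 and WT 1, 93 of Fed 1 and Fed 2, 58 of WT 1 and WT 2, 58 of Fed 2 and WT 2, 53 of Fed 1 and WT 2 and 14 of Fed 2 and WT 1. Of the 104, 65 had a peak in all 4 libraries. These counts take in any rank past 1000 in the other libraries, so they do not show how many regions share the pattern. Fed 1 and WT 1 had 17.4 M and 14.07 M kept tags, and Fed 2 and WT 2 had 7.77 M and 9.18 M. The part of depth in this pattern was not tested.

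Lipid genes recurred mostly outside the top 1000. None of 21 phospholipid synthesis, 20 lipogenesis, 20 cholesterol, 20 fatty acid oxidation, 14 lipoprotein assembly or 15 bile acid genes had a top 1000 peak in all 4 libraries, beside 1.86% of all genes, which is under 1 gene in a list of this size. With any peak in all 4 there were 5, 6, 3, 5, 0 and 2 of them. That is 23.8%, 30%, 15%, 25%, 0% and 13.3%, beside 10.7% of all genes. Pcyt1a, the rate-limiting enzyme of phosphatidylcholine synthesis by the CDP-choline route, was even across the libraries at 1176, 1259, 1239 and 1315. Insig1, an ER retention factor of the SREBP pathway, ranked 401, 743, 1280 and 1338. Fasn, fatty acid synthase, ranked 2882, 1684, 1614 and 3002, and Srebf1, a lipogenic transcription factor, 1595, 590, 3561 and 1955. Cyp51, an enzyme of cholesterol synthesis, ranked 730, 414, 1267 and 449. Cpt1a, of fatty acid import into mitochondria, ranked 2631, 4178, 2845 and 8158.

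Several metabolic genes linked to XBP-1 or to feeding lacked a peak within 1 kb of a start or gene end in 1 or more of the 4 libraries. Dgat2 (1085, 2966 and 5356) and Mttp (6255, 5876 and 8049) had peaks in Fed 1, Fed 2 and WT 2 only, as did 8622 genes in all. Scd1 had 1 in Fed 1 only, at rank 13927. Fgf21 ranked 19403 in Fed 1 and 11291 in WT 2. Pck1, a gluconeogenic enzyme, ranked 11109 in Fed 1 and 955 in WT 1, and G6pc and Cyp7a1 had a peak in WT 1 only, at ranks 2772 and 1634. Ppargc1a, Alb and Saa1 had none in any library. Insr, the insulin receptor, had a peak in all 4 at ranks 3515, 3401, 3120 and 6177.

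The counts for housekeeping genes were bounded by WT 1. Of 24 respiratory chain genes 3 had a peak in all 4 and 21 a peak in the remaining 3 without WT 1, of 24 ribosomal protein genes 4 and 20, and of 24 proteasome genes 8 and 21. All genes had 10.7% with a peak in all 4 and 50.1% without WT 1. The respiratory chain (12.5%) was thus near the first share, ribosomal proteins (16.7%) somewhat above it and the proteasome (33.3%) above it. Without WT 1 these lists stood at 87.5%, 83.3% and 87.5%, each well above the second share. The 16 function lists outside the secretory pathway, 310 genes together, had 64 with a peak in all 4 (20.6%) and 8 with a top 1000 peak in all 4 (2.58%, near the 1.86% of all genes). Without WT 1, 221 of the 310 had a peak in the rest (71.3%). Of the 8 genes in the top 1000, 4 were the response genes Xbp1, Ddit3, Atf4 and Eif2ak3. The others were Brd2, the nuclear receptor Nr1d2 (440, 192, 134 and 176), the proteasome subunit Psma3 (383, 617, 429 and 162) and the autophagy gene Atg5 (465, 434, 717 and 439).

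Hepatocyte markers had a peak in all 4 libraries about as often as all genes. Of 18 markers 2 (11.1%, beside 10.7% of all genes), Ass1 and Fah of amino acid metabolism, had a peak in all 4, none of them in the top 1000, and 8 had no peak in any, Alb and Ttr among them. Of 20 acute phase genes 1, Orm1, had a peak in all 4 (5.0%). Markers of Kupffer cells, endothelium, stellate cells, cholangiocytes, lymphocytes and erythroid cells, in 6 lists, had no member with a peak in all 4. Without WT 1 their shares were, in that order, 13.3%, 13.3%, 40%, 50%, 7.14% and 0%. Hepatocyte markers stayed at 11.1% there, beside 50.1% of all genes. A peak list does not measure expression, so these counts say nothing on the cells present.

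Away from genes, 167 of the 2337 recurring regions lay over 5 kb from the end of any protein-coding gene, 73 inside a gene and 94 outside, and 23 of them were in the top 1000 of all 4. The best placed, chr2:144165007-144166232, overlaps the lncRNA Banf2os and lies 84437 bp from the nearest gene end, that of Snx5. It ranked 3, 20, 12 and 13, with folds of 42.5, 63.6, 26.6 and 43.9, among the best placed start regions. The next was on chromosome 18, 8480 bp from Ube2d2a, at ranks 55, 30, 81 and 71. A region within Krt78 (chr15:101976969-101977800) ranked 112, 83, 93 and 99, and 1 within Chd9 (chr8:90907726-90909519) ranked 121, 87, 27 and 34. The fifth, at the lncRNA Gm32039, 14035 bp from Btg2 (chr1:134092842-134093530), ranked 140, 102, 119 and 137. All 4 libraries thus placed each of these regions at rank 140 or better.

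No gene was in the top 1000 of both Fed libraries without a peak in either WT library. The reverse held for 1 gene, the predicted Gm46390, at ranks 864 and 166 in WT 1 and WT 2. No gene in the top 10 of a library was outside the top 1000 of another. The 1 region of that kind, chr17:39842954-39848955 at the ribosomal RNA repeats Rn18s-rs5 and AY036118, ranked 9 in Fed 1 and 1 in both Fed 2 and WT 2 with no peak in WT 1. Its folds were only 2.82, 6.94 and 3.46, against folds of 35.1, 64.5 and 42.6 for Hsp90b1 in the same libraries.

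The share of recurring regions with a peak in the other 4 immunoprecipitated libraries of the series ranged from 18.9% to 98.5%. Of the 2337 regions 2301 were overlapped by a peak of Fasted replicate 1 and 1668 by 1 of Fasted replicate 2. In livers lacking Ern1, 441 were overlapped in replicate 1, whose list held 698 peaks, and 2188 in replicate 2, whose list held 30796. Of the 399 top regions 399, 317, 162 and 385 were overlapped in these 4 libraries. The lowest share was in the knockout library with the shortest list. The other knockout library overlapped 93.6% of the recurring regions and 96.5% of the top regions. These shares were above those of Fasted replicate 2, at 71.4% and 79.4%.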

How the data were processed

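Immunoprecipitated DNA of the Fed and WT livers was compared through the peak lists that the authors deposited for each library. The tools named in the submitters' processing notes are bcl2fastq, FastQC 0.11.3, the aligner Bowtie2 2.2.5 and the peak caller MACS2 2.2.1, with the build mm10. The file headers name MACS 2.1.1.20160309 instead, with 1 tag kept per position and a q cutoff of 0.05. The deposited lists give a pileup signal, a fold (a ratio over the local background) and q-values as −log10, which served here only to rank, filter and describe peaks within a list.

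With Python 3.11.15, pandas 2.3.3 and numpy 2.4.6, peaks overlapping by 1 bp or more were merged, and ranked by pileup, with ties ordered by fold. A gene had a peak where a summit lay within 1 kb of its start in the RefSeq promoter table of GRCm38.p6 (17491 of 21883 protein-coding genes) or, for the remaining 4392, of either gene end. Those include Tram1, Ube2g2, Hyou1, Manf, Sec61a1, Derl1, Srp19, Tmed7, Golgb1, Atf6, Dgat2, Scd1, Insr and Cyp7a1, where the peak may stand at a 3′ end. Neighbouring genes can share a peak. No test was made.

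Named genes were the 25 with the best worst rank among genes with a peak in all 4 libraries (predicted genes passed over), the fixed genes, up to 4 of each of 30 lists with its members lacking a peak, the 5 best regions over 5 kb from genes, and genes discordant between batches. Members, lists and rules were chosen with earlier results of these data known. Of 586 listed genes 4 had no match. Motifs were searched at the first start listed for a gene, and 2761 genes had several. Merging and gene assignment were tested on simulated data. Depth was 7.77 M to 17.4 M kept tags per library, and these values carry no interval, since overlapping tags are not counted per region. Alternatives were other thresholds, overlaps, windows, ranking measures and list depths, the authors' pooled lists and leaving out each library.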

Additional observations from a re-analysis of the deposited data

How the results depend on the processing

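Limits of the counts come mainly from WT replicate 1. Regions in all 4 libraries numbered 1064 with −log10 q of at least 10 and 1107 with fold of at least 5. Leaving out a library gave 2345 to 18650 regions, the highest without WT replicate 1, and it gave 2339 to 10954 genes. Genes with a peak in all 4 numbered 1132 with a window of 250 bp, 1074 with −log10 q of at least 10, 1100 with fold of at least 5 and 8623 in the authors' pooled Fed and WT lists. Top regions numbered 141, 248, 629 and 1504 at 250, 500, 2000 and 5000 peaks, and 417 to 484 with a library left out. Top 1000 genes numbered 278 ranked by fold and 370 ranked by −log10 q, of which 266 and 360 were among the 408, and 425 to 462 with a library left out. The mean share of top peaks in common over the 4 pairs across batches was 55.6%, and 39.8% ranked by fold, 71.8% at 250 peaks and 66.0% at 500. Over the 2 pairs within a group it was 57.4%, and 44.0% ranked by fold, 52.3% by −log10 q, 70.2% at 250, 66.5% at 500 and 52.1% at 2000. The 137 secretory genes became 127 with −log10 q of at least 10, 141 with a 5 kb window, 100 in the top 1000 and 164 without WT replicate 1. The 64 genes of the 16 other function lists became 21 with −log10 q of at least 10, 8 in the top 1000 and 221 without WT replicate 1. The 2 marker genes became 0, 0 and 18 in the same settings. Gene ends for all genes, and only genes with a table start, both chosen after seeing the data like the list counts without WT replicate 1, gave 2195 and 1923 genes. With every start of a gene searched, also chosen after seeing the data, the hexamer was in 122 and the UPRE core in 29 of the top genes, against 112 and 24, and the ERSE in 12 both ways. The cause of these changes was not tested, beyond fewer peaks or libraries entering. No paired analysis was possible because no result comes from a test.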

Other observations

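Regions found in a single library numbered 50749 in Fed replicate 1, 15280 in Fed replicate 2, 3009 in WT replicate 1 and 4050 in WT replicate 2, with 8.43%, 4.06%, 6.48% and 7.80% of them at starts. Among the top 1000 regions of WT replicate 1, 98 were in no other library, against 20 in Fed replicate 1, 16 in Fed replicate 2 and 1 in WT replicate 2. In the top 1000 regions of Fed replicate 1, Fed replicate 2 and WT replicate 2, respectively 184, 269 and 112 were missing from WT replicate 1 alone. The highest of the regions in WT replicate 1 only lay within Rab4a, a GTPase of endosomal recycling, at rank 303. Regions of Fed replicate 1 and WT replicate 1 only numbered 546, 14.5% of them at starts.

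Genes in the top 1000 of Fed replicate 1, Fed replicate 2 and WT replicate 2 with no peak in WT replicate 1 were led by Trmt5, a tRNA methyltransferase, and Slc38a6, which share a peak at ranks 420, 500 and 693. Esco1, of chromosome cohesion, ranked 520, 715 and 372, and Ambra1, an autophagy regulator, 863, 737 and 696.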
